A study of Mus musculus with 12 samples.

Results

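Cells of the mouse small intestine labelled Mex3a High Lgr5 Low were compared with cells labelled Mex3a Low Lgr5 Low, 2 expression arrays against 2, out of 12 arrays in the series. The samples of each population were chosen by their label, and the populations to compare were chosen with earlier results of these data known. The 12 arrays cover 6 populations, Mex3a high, low or negative, each within an Lgr5-high and an Lgr5-low gate, and each population came from 2 biological replicates named MR793 and MR820. The labels describe the samples as untreated primary cells, with 2000 cells per sample and 22 amplification cycles. They give no strain, genotype, age or number of animals per replicate, and they do not say how the level of Mex3a or of Lgr5 was read when the cells were isolated. The p values below therefore measure the spread between these arrays. The 2 arrays of MR793 were run on strip 3 and the 2 arrays of MR820 on strip 2, so the change within each replicate is also a change within 1 strip. The labelled question is how Mex3a-high and Mex3a-low cells differ where Lgr5 is low.

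Lgr5 encodes a receptor that marks the dividing stem cells at the base of the intestinal crypt, and Mex3a encodes an RNA-binding protein. Cells that leave the stem cell compartment become absorptive enterocytes or one of several secretory types. Tuft cells are rare chemosensory cells that detect luminal signals through a taste-like cascade and signal to immune cells with cytokines and eicosanoids. Enteroendocrine cells are rare hormone-secreting cells with neuron-like granule release, and a cascade of transcription factors sets their identity. Goblet cells secrete mucus and Paneth cells secrete antimicrobial proteins at the crypt base.

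The values are RMA log2 expression values, 1 probe set per gene, for 17097 genes. Among the 4 arrays the correlations were 0.978 to 0.992 and the array medians 5.83 to 5.89. Lgr5 lay at 6.37 to 8.05 on the 6 Lgr5-low arrays and at 9.00 to 10.21 on the 6 Lgr5-high arrays, without overlap. It was 8.05 and 7.61 in Mex3a-high cells (MR793, MR820) and 7.14 and 7.39 in Mex3a-low cells, a difference of 0.57 ± 0.40 (log2 ± SE, limma adjusted p = 1). Mex3a itself was 5.71 and 5.57 in Mex3a-high cells and 5.64 and 5.48 in Mex3a-low cells, so the populations overlapped. The difference was 0.08 ± 0.19 (limma adjusted p = 1), and 0.02 on another Mex3a probe set. Both Mex3a values lie close to the array medians. The Mex3a names below are therefore those of the labels, and the arrays did not bear them out through the Mex3a transcript. An array of Mex3a-high Lgr5-high cells from MR793, in neither compared population, stood apart from the rest with correlations of 0.896 to 0.916. It enters the spread that the fit shares over all populations. With it the residual SD had a median over genes of 0.22 log2, and without it 0.116.

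Genes of tuft cells and of enteroendocrine cells rose in Mex3a-high Lgr5-low cells, and no gene passed the test in the other direction. Counting each gene once, 32 of 71 measured tuft genes (45.1%) and 17 of 95 measured enteroendocrine genes (17.9%) were higher, against 0.889% of all genes. The tuft genes join the lists of markers, sensory cascade, eicosanoid synthesis, transcription factors and leukocyte-type genes. The enteroendocrine genes join those of hormones, amine synthesis, granins, transcription factors, exocytosis, channels and nutrient receptors. The lists were chosen with earlier results of these data known, so these shares describe the lists and are no test. Because each sample holds many cells, more cells of a type and more RNA per cell cannot be told apart. With limma (Benjamini-Hochberg over 17097 genes, adjusted p under 0.05), 152 genes, that 0.889% of those tested, were higher in Mex3a-high Lgr5-low cells and 0 were lower. At an unadjusted p under 0.05 there were 703 higher and 94 lower. The 152 genes rose by 0.57 to 3.36 log2 with a median of 1.89, against a median of -0.01 over all genes; 136 of them rose more than 2-fold and 70 more than 4-fold. Each of the 152 was higher in both replicates. Below, groups are said not to overlap where both arrays of 1 population lie above both of the other. With 2 arrays each this only describes the values, and the share of all genes without overlap was not counted. It is no support for a difference, whether called or not. The rise was larger in MR820 for 118 genes and in MR793 for 34, with medians of 2.04 and 1.76. The count depended on single arrays. Leaving out an array outside the 4 compared changes only the shared spread, and not the differences. Either array of such a population then has nearly the same effect, because the array left alone gives no spread. Leaving out the Mex3a-high Lgr5-low array gave 54 (MR793) or 94 (MR820), leaving out the Mex3a-low Lgr5-low array of MR820 gave 49, and leaving out any 1 of the Mex3a-low or Mex3a-negative Lgr5-high arrays gave 94 or 95. Without the array that stood apart it was 405, with all 152 among them, and 404 without its replicate from MR820. Of the 152 genes, 40 passed with each array left out in turn.

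Promoters are shown for 4 of the genes that rose, because each encodes a regulator or an enzyme that stands for its cell type: Spib and Hpgds for tuft cells, Isl1 and Neurod1 for enteroendocrine cells. Spib encodes an Ets-family transcription factor and Hpgds the hematopoietic prostaglandin D synthase, while Isl1 encodes a LIM homeodomain factor and Neurod1 a basic helix-loop-helix factor. The sequences are from RefSeq on GRCm38.p6, each 300 bases long, from 250 bases before to 50 bases after the annotated start, and all 4 genes lie on the minus strand. Spib spans chr7:44532022-44532321, Hpgds chr6:65144681-65144980, Isl1 chr13:116309639-116309938 and Neurod1 chr2:79456587-79456886. Capitals mark matches to the octamer ATGCAAAT bound by POU factors, to the Ets-type GAGGAAGT, and to the E-box CAGATG and its other forms CAGCTG and CATATG, on either strand.

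Spib: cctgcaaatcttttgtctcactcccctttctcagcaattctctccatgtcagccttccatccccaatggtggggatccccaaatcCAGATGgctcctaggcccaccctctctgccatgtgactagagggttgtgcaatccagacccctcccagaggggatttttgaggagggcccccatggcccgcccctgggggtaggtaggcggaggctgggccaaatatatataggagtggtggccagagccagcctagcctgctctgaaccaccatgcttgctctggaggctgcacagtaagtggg
Hpgds: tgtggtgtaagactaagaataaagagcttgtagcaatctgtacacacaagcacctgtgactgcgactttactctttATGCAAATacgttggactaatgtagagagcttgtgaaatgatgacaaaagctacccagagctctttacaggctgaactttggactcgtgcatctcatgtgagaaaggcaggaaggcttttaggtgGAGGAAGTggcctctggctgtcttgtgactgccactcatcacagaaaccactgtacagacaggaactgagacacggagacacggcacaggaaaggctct
Isl1: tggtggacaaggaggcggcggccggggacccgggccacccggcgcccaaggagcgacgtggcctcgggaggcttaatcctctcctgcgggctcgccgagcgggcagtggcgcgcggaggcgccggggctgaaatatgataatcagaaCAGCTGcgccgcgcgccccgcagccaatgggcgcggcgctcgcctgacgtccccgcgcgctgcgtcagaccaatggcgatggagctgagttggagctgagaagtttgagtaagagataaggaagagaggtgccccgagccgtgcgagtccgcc
Neurod1: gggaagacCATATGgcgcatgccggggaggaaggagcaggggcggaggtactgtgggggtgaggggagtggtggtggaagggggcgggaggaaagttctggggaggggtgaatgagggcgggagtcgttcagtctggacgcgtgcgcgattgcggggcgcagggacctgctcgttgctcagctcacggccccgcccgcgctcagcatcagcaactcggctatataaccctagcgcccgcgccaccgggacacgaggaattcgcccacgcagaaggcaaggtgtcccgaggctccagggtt

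The Hpgds window held an octamer with its first base 174 bases before the start and a GAGGAAGT 49 bases before it. The other windows held 1 E-box each, 165 bases before the start in Spib, 103 in Isl1 and 242 in Neurod1. Of the 152 genes that rose, 109 had a promoter in the table, against 13605 of the 17097 genes tested. The octamer was found in 8 of the 109 (7.34%) and in 1.71% of all promoters. GAGGAAGT was found in 10 (9.17%) against 3.54%, and CAGATG in 30 (27.5%) against 15.6%. The shares were nearer for CAGCTG (16.5% against 18.9%), CATATG (2.75% against 2.73%), the RFX-type motif GTTGCC (16.5% against 14.8%) and the homeodomain motifs TAATTG (7.34% against 6.62%) and TAATGG (8.26% against 6.71%). An X-box motif, which contains GTTGCC, occurred in 2 of the 109 (1.83% against 0.632%) and an NF-kB motif in 0 (against 0.0515%). Among the 22 tuft markers that rose and had a promoter, 2 held the octamer, Hpgds and Kctd12, and 3 held GAGGAAGT, Hpgds, Pik3cg and Vav1. These motifs were picked with the list of genes in view, no test was made, and a match is a match of letters only.

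Tuft cell markers rose as a group. Of 44 listed markers 38 were measured, and 25 of them (65.8%) were higher against 0.889% of all genes, with a median change of 2.12 log2 (1.75 in MR793 and 2.42 in MR820). The doublecortin-like kinase gene Dclk1, the usual marker of tuft cells, was 11.64 and 11.81 in Mex3a-high cells and 9.59 and 8.48 in Mex3a-low cells. Both Mex3a-high arrays were above both Mex3a-low arrays, and the Mex3a-low array of MR820 was the lowest of the 4. The means were 11.72 ± 0.12 and 9.03 ± 0.78 (SD, n = 2), a rise of 2.69 ± 0.32 log2 or 6.47-fold (limma adjusted p = 0.00389). This call held with each array left out. The changes on the 7 other Dclk1 probe sets were 2.01 to 3.56. Other genes were less even. Of 45 other probe sets of 28 named genes that were called, all 45 had a positive change (0.02 to 3.56), but 17, in 13 genes, changed by less than 1/2 of the value given for the gene. Such values were 0.36 for Dner, 0.40 for Tmem229a, 0.47 to 1.15 for Runx1t1, 0.31 for Slc18a1, 0.02 for Syp, 0.09 for Etv1 and 0.25 for Itpr2. They were 0.57 and 0.62 for Cacna2d1, 1.08 for Rac2, 1.29 and 1.21 for Prox1 and 0.58 for Nefl, with Dhx58 and Hk1 as the other two genes. The advillin gene Avil, for a protein that binds actin, was 11.78 and 11.87 against 9.99 and 9.11, and Sh2d6, an adaptor gene of tuft cells, 12.40 and 12.18 against 10.80 and 9.51. In both genes the groups did not overlap. Avil rose by 2.28 ± 0.28 (adjusted p = 0.00522) and Sh2d6 by 2.13 ± 0.38 (adjusted p = 0.0368). The call of Avil was lost without the Mex3a-high array of MR793 (adjusted p = 0.0613) or of MR820 (0.0515). That of Sh2d6 was lost without any 1 of 9 arrays (adjusted p 0.0735 to 0.346).

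The count of tuft markers was 9 of 38 when the Mex3a-high Lgr5-low array of MR793 was left out, 14 when its MR820 counterpart was left out and 11 when the Mex3a-low Lgr5-low array of MR820 was. Their median stayed at 1.79 to 2.42 log2 in each of these fits and when the MR793 array of Mex3a-low Lgr5-low cells was left out. Of the tuft markers that were not called, the lectin gene Siglecf differed by 2.84 ± 0.56 (limma adjusted p = 0.0616), with 10.42 and 10.14 against 8.43 and 6.46. The lowest change of the list was that of the G protein subunit gene Gng13 at -0.14.

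**Figure D1:**
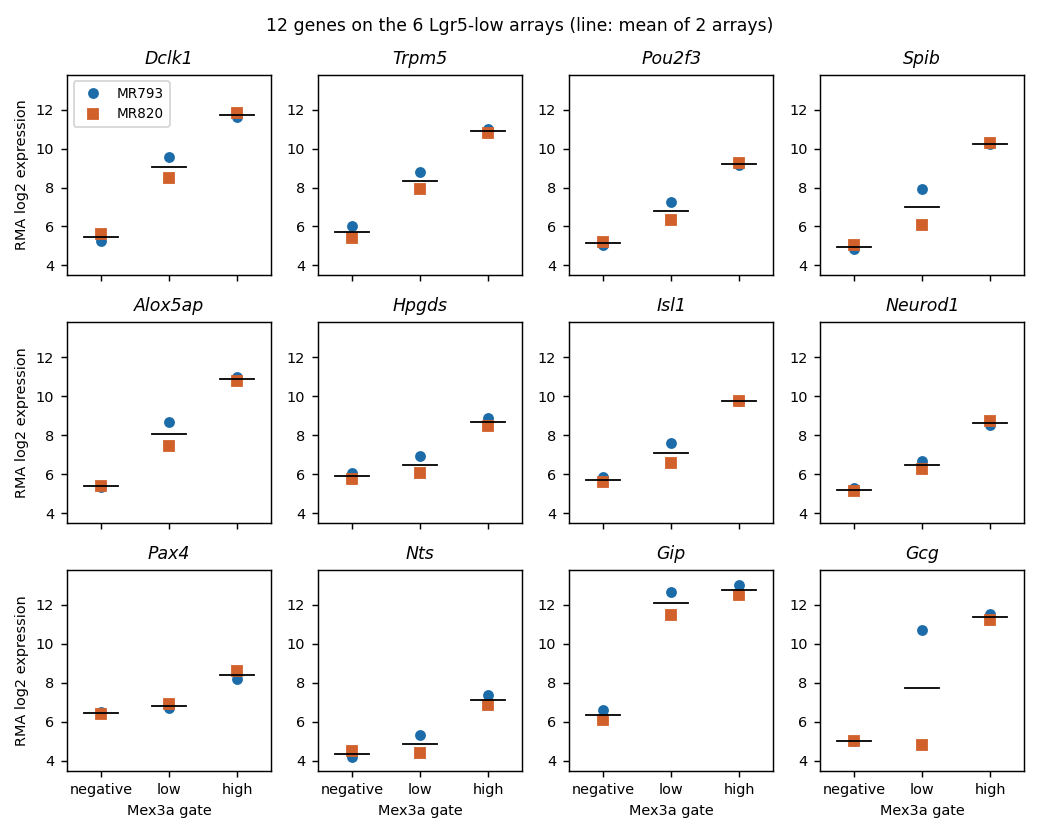
RMA log2 expression of 12 genes on the 6 Lgr5-low arrays, by Mex3a gate, with a circle for MR793, a square for MR820 and a line at the mean of the 2 arrays. Dclk1 rises at both steps between the gates, Gip lies at 11.50 to 13.05 in both Mex3a-low and Mex3a-high cells, and Gcg differs between the 2 Mex3a-low arrays (10.69 and 4.82).

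The genes of the tuft sensory cascade showed the same direction. Of 17 measured members 6 were called higher (35.3% against 0.889% of all genes), with a median of 1.21. Trpm5, the cation channel at the end of taste-type signalling, was 11.00 and 10.78 in Mex3a-high cells and 8.78 and 7.93 in Mex3a-low cells, a rise of 2.54 ± 0.38 (limma adjusted p = 0.0144). Pik3cg, the catalytic subunit of a G protein-activated PI3 kinase, was 8.92 and 9.30 against 6.90 and 6.07 and rose by 2.63 ± 0.27 (adjusted p = 0.00255). Its regulatory partner Pik3r5 was 9.18 and 9.03 against 7.13 and 6.64 and rose by 2.22 ± 0.22 (adjusted p = 0.00182). The list held more calls without either Mex3a-high Lgr5-high array, as did all genes together. In Trpm5, Pik3cg and Pik3r5 the Mex3a-high arrays lay above the Mex3a-low arrays without overlap. The calcium release channel gene Itpr2 rose by 2.15 ± 0.23, the G protein regulator gene Rgs13 by 2.55 ± 0.28, and the phospholipase gene Plcg2 by 1.96 ± 0.22, with adjusted p values of 0.00305, 0.00305 and 0.00307. The calls of Pik3cg, Pik3r5, Itpr2 and Rgs13 held with each array left out. That of Plcg2 was lost when the MR820 array of Mex3a-low Lgr5-low cells was left out (adjusted p = 0.0519). That of Trpm5 was lost without the same array (0.192) and without either Mex3a-high Lgr5-low array (0.157 for MR793, 0.0828 for MR820).

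Enzymes that make eicosanoids, the lipid mediators of tuft cells, divided. Of 10 measured genes 4 were called higher (40% against 0.889% of all genes), and the median of the list was 0.37 (0.15 to 0.63 with 1 array left out). Alox5ap, whose product presents arachidonic acid to 5-lipoxygenase, was 10.99 and 10.80 in Mex3a-high and 8.68 and 7.46 in Mex3a-low cells and rose by 2.82 ± 0.33 (limma adjusted p = 0.00389). The 5-lipoxygenase gene Alox5 was 8.59 and 8.61 against 7.07 and 6.01, a rise of 2.06 ± 0.31 (adjusted p = 0.0159). Ltc4s, the leukotriene C4 synthase gene, was 8.47 and 7.80 against 6.11 and 5.45, a rise of 2.36 ± 0.29 (adjusted p = 0.00455). The branch from arachidonic acid to cysteinyl leukotrienes was thus higher at each of these 3 genes, with no overlap between the groups. Hpgds, whose promoter is printed above, was 8.90 and 8.48 against 6.94 and 6.04 and rose by 2.20 ± 0.31 (adjusted p = 0.0102). The 4 calls were lost without the Mex3a-high Lgr5-low array of MR793 (adjusted p = 0.0536 for Alox5ap, 0.138 for Alox5, 0.0515 for Ltc4s and 0.123 for Hpgds). Without the MR820 array of Mex3a-low Lgr5-low cells those of Alox5 (0.0788), Ltc4s (0.0571) and Hpgds (0.0804) were lost, and without the Mex3a-high Lgr5-low array of MR820 that of Alox5 (0.111).

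Of 13 transcription factor genes of tuft cells 4 were called higher (30.8% against 0.889% of all genes), with a median of 0.72. All 13 changes were positive, against 47.6% of all genes. Pou2f3, the POU factor that tuft cells require, was 9.14 and 9.27 in Mex3a-high and 7.25 and 6.33 in Mex3a-low cells, a rise of 2.41 ± 0.34 (limma adjusted p = 0.0111). Spib was 10.24 and 10.26 against 7.94 and 6.05, a rise of 3.25 ± 0.48 (adjusted p = 0.0138). The zinc finger repressor gene Gfi1b was 7.27 and 7.04 against 5.48 and 5.14 and rose by 1.84 ± 0.25 (adjusted p = 0.00937). The homeobox gene Hmx2 was 6.95 and 7.00 against 5.39 and 5.31 and rose by 1.62 ± 0.28 (adjusted p = 0.0318). In each the groups did not overlap, and in Pou2f3 and Spib the Mex3a-low array of MR820 was lowest. More members were called without either Mex3a-high Lgr5-high array, as among all genes. The 4 calls also depended on single arrays of the Lgr5-low gate. Without the Mex3a-high array of MR793 the adjusted p was 0.0945 for Pou2f3, 0.123 for Spib, 0.109 for Gfi1b and 0.237 for Hmx2. Without the Mex3a-low array of MR820 it was 0.11 for Pou2f3, 0.137 for Gfi1b and 0.316 for Hmx2. Without the Mex3a-high array of MR820 it was 0.0894 for Pou2f3, 0.0969 for Spib and 0.189 for Hmx2. Hmx2 lost its call without any 1 of 10 arrays (0.0643 to 0.316).

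Signalling genes that tuft cells share with leukocytes rose too. Of 22 measured 14 were called higher (63.6% against 0.889% of all genes), with a median of 2.02 (1.84 in MR793 and 2.20 in MR820). Several of these genes are also on the list of tuft markers. This list, too, was chosen with earlier results of these data known, so its share is no test. The count fell without the Mex3a-high Lgr5-low array of MR793 and without the MR820 array of Mex3a-low Lgr5-low cells. So did the count over all genes. Fyb, an adaptor of immune receptor signalling, was 8.75 and 9.05 in Mex3a-high and 6.44 and 5.72 in Mex3a-low cells and rose by 2.83 ± 0.24 (limma adjusted p = 0.000932). The tyrosine kinase gene Fes was 9.25 and 9.01 against 6.92 and 6.12, a rise of 2.61 ± 0.28 (adjusted p = 0.00272). Il17rb, the receptor subunit for the tuft cytokine IL-25, was 9.76 and 10.05 against 8.05 and 7.52, a rise of 2.12 ± 0.24 (adjusted p = 0.00306). In these 3 genes the groups did not overlap and the calls held with each array left out. Of the others on the list Tspan6 (2.46 ± 0.20, adjusted p = 0.000732) and the Tec-family kinase gene Bmx (2.25 ± 0.17, 0.000535) also held their calls. The phosphatase gene Ptpn6 (2.41 ± 0.29, 0.00395), Ly6g6d (2.32 ± 0.28, 0.00395), the kinase gene Matk (2.26 ± 0.29, 0.00683) and the GTPase gene Rac2 (2.31 ± 0.42, 0.0375) rose with calls lost without the MR820 array of Mex3a-low Lgr5-low cells (0.0524, 0.0559, 0.0595 and 0.427). Ly6g6d (0.059) and Matk (0.0892) also lost theirs without the MR793 array of Mex3a-high Lgr5-low cells, and Rac2 lost it without any 1 of 9 arrays (0.0783 to 0.427). Il25 itself was dim, at 6.31 and 6.27 against 5.31 and 5.09, and rose by 1.09 ± 0.20 (adjusted p = 0.0388), a call lost without any 1 of 10 arrays (0.0853 to 0.442). Ptprc, which encodes the pan-leukocyte phosphatase CD45, was 6.20 and 5.46 against 4.33 and 4.26 and rose by 1.53 ± 0.19 (adjusted p = 0.00478), and this call was lost when the MR820 array of Mex3a-low Lgr5-low cells was left out (0.0648).

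Markers of leukocytes outside this shared group were not called. Of 18 measured T cell, B cell, killer cell and macrophage genes 0 were called by limma (at an unadjusted p under 0.05, 0 higher and 0 lower), and their median change was 0.07. Their mean level was 5.70 and 5.90 in Mex3a-high, 5.75 and 5.66 in Mex3a-low and 5.70 and 5.66 in Mex3a-negative cells, below the mean of all genes (6.90 to 6.94 on these arrays). The killer cell protease gene Gzma had the largest change, 1.06 ± 0.51 (adjusted p = 1), from 6.00 and 7.70 against 5.63 and 5.94. Of 10 mast cell and basophil genes 0 were called (1 higher at an unadjusted p under 0.05), with a median of 0.05 and mean levels of 5.01 to 5.34 on the 6 Lgr5-low arrays.

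**Figure D2:**
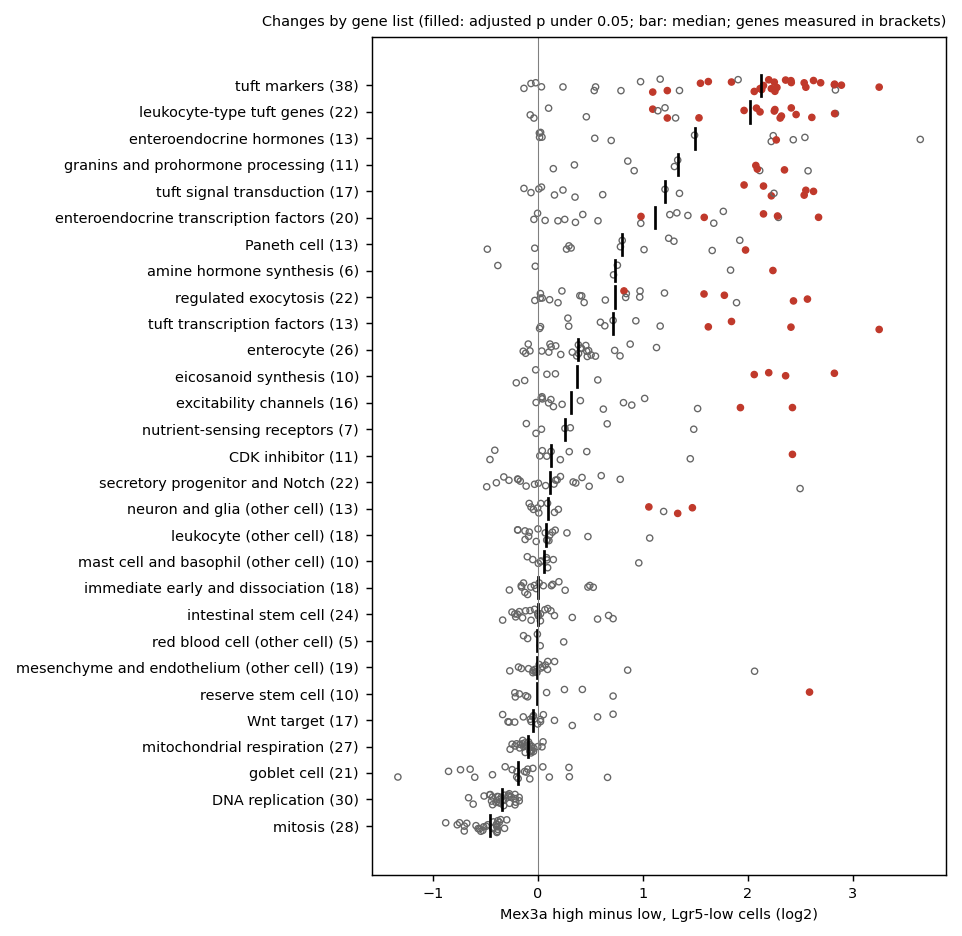
Change between Mex3a-high and Mex3a-low Lgr5-low cells (log2, horizontal axis) for each measured gene of 29 lists, with filled points for genes with an adjusted p under 0.05 and a bar at the median of the list. Tuft markers have the largest median (2.12), the lists of mitosis and DNA replication the lowest (-0.46 and -0.35), and the lists of leukocytes, mast cells, mesenchyme, neurons and red blood cells have medians of -0.01 to 0.09.

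Enteroendocrine transcription factors rose in part. Of 20 measured 5 were called higher (25% against 0.889% of all genes), 14 had an unadjusted p under 0.05, and the median change was 1.12 (0.75 in MR793 and 1.48 in MR820). Isl1 was 9.75 and 9.76 in Mex3a-high and 7.61 and 6.55 in Mex3a-low cells, and Neurod1 was 8.54 and 8.73 against 6.69 and 6.28. In both genes the Mex3a-high arrays were nearly level and above both Mex3a-low arrays. Isl1 rose by 2.67 ± 0.32 or 6.38-fold (limma adjusted p = 0.00395) and Neurod1 by 2.15 ± 0.18 or 4.44-fold (adjusted p = 0.000932). St18, which encodes a zinc finger factor, was 6.59 and 7.32 against 4.74 and 4.61 and rose by 2.28 ± 0.20 (adjusted p = 0.00102). Pax4, a paired-homeobox factor of early endocrine cells, was 8.18 and 8.63 against 6.73 and 6.91 and rose by 1.58 ± 0.26 (adjusted p = 0.0254). Etv1, an Ets factor, was 5.53 and 5.91 against 4.82 and 4.66 and rose by 0.98 ± 0.15 (adjusted p = 0.0191). Neurod1 and St18 held their calls with each array left out. Isl1 lost its call without the Mex3a-high Lgr5-low array of MR793 (adjusted p = 0.0515), Pax4 without any 1 of 8 arrays (0.0607 to 0.205), and Etv1 without any 1 of 7 (0.0535 to 0.251).

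Neurog3, the factor that starts the endocrine programme, was 8.48 and 9.66 in Mex3a-high and 7.68 and 7.81 in Mex3a-low cells, a difference of 1.32 ± 0.35 that was not called (limma adjusted p = 0.25). Nkx2-2, a homeodomain factor of endocrine cells, was 9.16 and 9.26 against 6.98 and 6.86, a difference of 2.29 ± 0.48 (adjusted p = 0.0768). Neither gene overlapped between the groups, but neither was called. The array that stood apart bears on this list as on all genes. Without it, or without its replicate from MR820, more of the 20 factors were called, at the same median of 1.12. More of all genes were called in these fits as well. With the strip as a block 9 factors were called, where 206 of all genes were. Without the Mex3a-low Lgr5-high array of either replicate fewer factors were called, and fewer of all genes. The same held without the Mex3a-high or the Mex3a-low Lgr5-low array of MR820.

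Hormone genes gave large but uneven differences. All 13 measured hormone genes had a positive mean change, against 47.6% of all genes, and 9 (69.2%) were positive in both replicates, against 29.6%. Of the 13, 1 was called (7.69% against 0.889%). The median was 1.49 for the mean change, 0.87 in MR793 and 1.13 in MR820. Among the Lgr5-low arrays, leaving out that of Mex3a-high cells from MR793 gave a median of 0.80; it was 0.71 without the Mex3a-low array of MR820 and 2.19 without the Mex3a-high array of MR820. The count was 2 with the replicate as a block and 4 with the strip as a block, where 168 and 206 of all genes were called. It rose without either Mex3a-high Lgr5-high array, as did the count over all genes. The hormone count also rose without the MR793 array of Mex3a-low Lgr5-low cells, where the count over all genes fell. Without the MR793 array of Mex3a-high Lgr5-low cells both counts fell. The called gene was Nts, for neurotensin, at 7.37 and 6.88 in Mex3a-high and 5.32 and 4.39 in Mex3a-low cells, a rise of 2.27 ± 0.29 (limma adjusted p = 0.00564). Its call was lost without the Mex3a-high Lgr5-low array of MR793 (0.0751). Gcg, the proglucagon gene of L cells, was 11.56 and 11.24 in Mex3a-high cells and 10.69 and 4.82 in Mex3a-low cells. It was near its Mex3a-high level on 1 Mex3a-low array and near its Mex3a-negative level (5.04 and 5.04) on the other, so its difference of 3.64 ± 1.40, the largest of all genes, was not called (adjusted p = 0.781). Gip, the incretin gene of K cells, was 13.05 and 12.52 against 12.67 and 11.50, so the groups overlapped, with a difference of 0.70 ± 0.73 (adjusted p = 1). In Mex3a-negative cells Gip was 6.62 and 6.08. Cck, the cholecystokinin gene, was 9.89 and 9.48 against 8.73 and 6.19, and Sst, the somatostatin gene, 11.24 and 10.72 against 9.05 and 8.43. The groups did not overlap in either, but neither was called, with differences of 2.22 ± 0.67 (adjusted p = 0.395) and 2.24 ± 0.51 (adjusted p = 0.117). Within the Mex3a-low cells the mean level of the 13 genes was 7.67 in MR793 and 6.44 in MR820, against 8.60 and 8.30 in Mex3a-high cells.

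Genes of the hormone granules had positive changes too. Of 11 granin and prohormone-processing genes 3 were called higher (27.3% against 0.889% of all genes), with a median of 1.33. All 11 changes were positive in both replicates, against 29.6% of all genes. Within the Lgr5-low gate the median was 0.89, with 0 calls, without the Mex3a-high array of MR793 and 2.21, with 2 calls, without that array of MR820. The count was 1 without the Mex3a-low array of MR820, any 1 Mex3a-negative array or either Mex3a-low Lgr5-high array, and 5 with the strip as a block. Scg2, for the granule protein secretogranin II, was 7.88 and 7.30 against 5.98 and 4.51 and rose by 2.35 ± 0.39 (limma adjusted p = 0.0251). Pam, the enzyme that amidates peptide hormones, rose by 2.09 ± 0.27 (adjusted p = 0.00564) and Pcsk1, the prohormone convertase gene, by 2.08 ± 0.37 (adjusted p = 0.0375). Chgb, for chromogranin B, was 12.65 and 12.61 in Mex3a-high cells, 12.17 and 11.26 in Mex3a-low cells and 9.37 and 8.19 in Mex3a-negative cells. Like Gip it was already high in Mex3a-low cells, and its difference of 0.92 ± 0.81 was not called (adjusted p = 1). Scg2 lost its call without any 1 of 9 arrays (adjusted p 0.0519 to 0.27), Pcsk1 without any 1 of 9 (0.0783 to 0.384), and Pam without the Mex3a-high Lgr5-low array of MR793 (0.0751).

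Of 22 genes of regulated exocytosis 5 were called higher (22.7% against 0.889% of all genes), with a median of 0.73. Syt13, a synaptotagmin gene of endocrine cells, was 7.39 and 7.48 against 5.90 and 5.81, a rise of 1.58 ± 0.15 (limma adjusted p = 0.00178) that held with each array left out. The vesicle fusion gene Snap25 rose by 2.57 ± 0.48 (adjusted p = 0.0468), the granule membrane protein gene Ptprn2 by 2.43 ± 0.45 (adjusted p = 0.0409), the synaptophysin gene Syp by 1.78 ± 0.29 (adjusted p = 0.0251) and the granule priming gene Cadps by 0.82 ± 0.12 (adjusted p = 0.0146). Snap25 lost its call without any 1 of 8 arrays (0.0944 to 0.378), Ptprn2 (0.0783 to 0.339) and Syp (0.0594 to 0.251) without any 1 of 9, and Cadps without the Mex3a-high Lgr5-low array of MR793 (0.127) or the Mex3a-low Lgr5-low array of MR820 (0.181). Of 16 channel genes 2 were higher (12.5% against 0.889% of all genes), both for calcium channel subunits. They were Cacna2d1, by 2.42 ± 0.32 (adjusted p = 0.00713), and Cacna1h, by 1.93 ± 0.34 (adjusted p = 0.0331). Cacna2d1 lost its call without the Mex3a-high Lgr5-low array of MR793 (0.0909) and Cacna1h without any 1 of 8 arrays (0.0753 to 0.407). Of 6 genes of amine hormone synthesis 1 was called (16.7% against 0.889% of all genes), the vesicular monoamine transporter gene Slc18a1. It was higher by 2.24 ± 0.40 (adjusted p = 0.0373), a call lost without any 1 of 8 arrays. Of 7 nutrient-sensing receptor genes 0 were called (2 higher at an unadjusted p under 0.05).

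Of the 152 genes 55 were on any of the 29 lists and 97 on none. Genes of both cell types rose in the same samples, and these arrays do not show whether single cells held both.

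**Figure D3:**
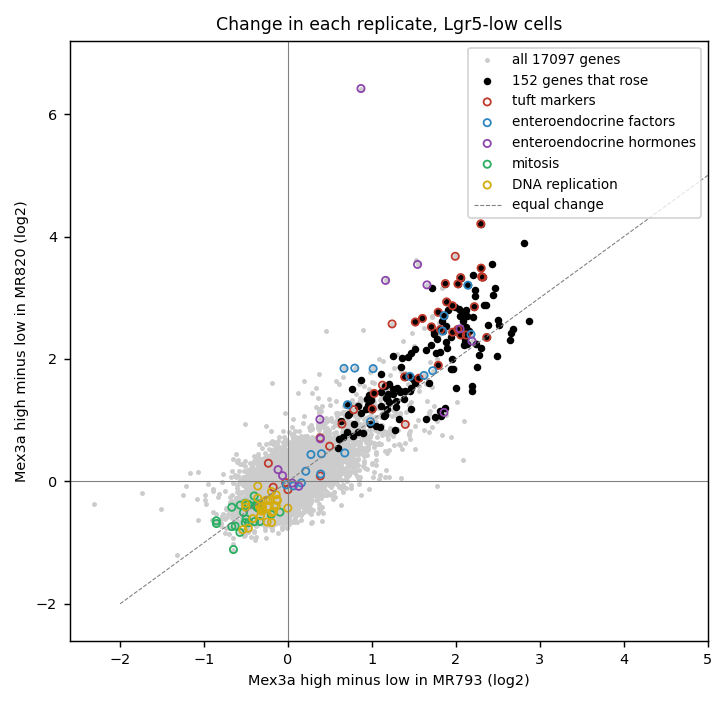
Change of each gene in MR793 (horizontal axis) and in MR820 (vertical axis), Mex3a-high minus Mex3a-low, both log2, with all 17097 genes in grey, the 152 that rose in black and 5 lists ringed. Most of the black points lie above the line of equal change (118 of 152), Gcg is the hormone at the top, and the genes of mitosis and DNA replication lie below 0 in both replicates.

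Of the 15 largest rises 8 were of genes on none of the lists. Pygl, the liver-type glycogen phosphorylase gene, was 10.05 and 10.21 in Mex3a-high and 7.24 and 6.30 in Mex3a-low cells and rose by 3.36 ± 0.31 or 10.2-fold (limma adjusted p = 0.00124). Dner, a Notch-related transmembrane protein gene, was 8.21 and 7.99 against 5.78 and 4.44 and rose by 2.99 ± 0.33 (adjusted p = 0.00305). Runx1t1, a transcriptional corepressor gene, was 8.06 and 8.48 against 5.62 and 5.43 and rose by 2.74 ± 0.22 (adjusted p = 0.000551). In these genes, too, the groups did not overlap, and the calls held with each array left out. So did those of Nebl, for an actin-binding nebulin relative (2.82 ± 0.21), Tmem229a (2.75 ± 0.18) and the atypical chemokine receptor gene Ackr4 (2.63 ± 0.29), with adjusted p values of 0.000535, 0.000535 and 0.00306. The tuft marker Kctd12 (2.89 ± 0.54, adjusted p = 0.0476), Lrmp (2.78 ± 0.48, 0.0326) and Basp1 (2.68 ± 0.40, 0.0138) rose with calls that single arrays ended: Kctd12 without any 1 of 10 arrays (0.0872 to 0.551) and with the replicate as a block (0.0622), Lrmp without any 1 of 9 (0.0674 to 0.339) and Basp1 without the Mex3a-high Lgr5-low array of MR793 (0.156).

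Genes of the cell cycle leaned the other way without a call. All 28 measured genes of mitosis and all 30 of DNA replication were lower in Mex3a-high cells in both replicates, against 32.6% of all genes, with medians of -0.46 and -0.35. Of these 58 genes 0 were called by limma; at an unadjusted p under 0.05 there were 7 of the mitosis genes and 0 of the replication genes. Mki67, the proliferation marker, was 10.48 and 10.47 in Mex3a-high and 10.86 and 10.86 in Mex3a-low cells, a difference of -0.39 ± 0.18 (adjusted p = 1). The groups did not overlap, and the shift was small beside those of the secretory genes. Cenpe, a centromere motor gene, was 7.98 and 7.47 against 8.63 and 8.58, a difference of -0.88 ± 0.31 (adjusted p = 0.603). The replication median was -0.21 without the MR793 array of Mex3a-high Lgr5-low cells and -0.16 without the MR820 array of Mex3a-low Lgr5-low cells. The medians of mitosis and replication lay at -0.47 and -0.36 after another quantile normalization and at -0.48 and -0.38 with arrays centred on a common median. Without the array that stood apart 2 mitosis genes were called lower, and 2 without its replicate from MR820. Cdkn1c, the gene of the cyclin-dependent kinase inhibitor p57, was 9.40 and 9.33 against 7.41 and 6.47 and rose by 2.43 ± 0.27 (adjusted p = 0.00305), with a call that held with each array left out. It was the 1 called member of 11 CDK inhibitor genes (9.09% against 0.889% of all genes). Cdkn1a, for p21, was 11.73 and 11.58 against 10.72 and 9.69, a difference of 1.45 ± 0.53 (adjusted p = 0.707).

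Stem cell genes showed no shared direction. Of 24 intestinal stem cell genes and 17 Wnt targets 0 were called by limma (0 and 0 at an unadjusted p under 0.05 in either direction), with medians of -0.00 and -0.04. Of 10 reserve stem cell genes 1 was called (10% against 0.889% of all genes). It was Prox1, a homeobox factor that endocrine and tuft cells also express. Its values were 8.06 and 7.43 against 5.38 and 4.93, a rise of 2.59 ± 0.36 (adjusted p = 0.0103). That call was lost without the Mex3a-high Lgr5-low array of MR793 (0.118) or the Mex3a-low Lgr5-low array of MR820 (0.149).

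Goblet cell genes had a median change below 0. Of 21 measured 0 were called by limma (0 higher and 1 lower at an unadjusted p under 0.05), with a median of -0.19. Lower in both replicates were 14 (66.7%), against 32.6% of all genes. Clca1, a secreted goblet protein gene, was 9.65 and 10.33 in Mex3a-high and 11.96 and 10.70 in Mex3a-low cells, a difference of -1.34 ± 1.01 (adjusted p = 1), mostly from MR793. Tff3, for the trefoil peptide, was 12.74 and 12.91 against 13.06 and 12.99. Of 13 Paneth cell genes 1 was called (7.69% against 0.889% of all genes). With the replicate as a block 3 were called, and 2 with the strip as a block, where 168 and 206 of all genes were. More Paneth cell genes were also called without either Mex3a-high Lgr5-high array, as among all genes. The gene called was the phospholipase gene Pla2g2f, at 10.07 and 9.85 against 8.11 and 7.85, a rise of 1.98 ± 0.29 (adjusted p = 0.0138) that was lost without any 1 of the 4 arrays compared (0.0629 to 0.203). Their median was 0.80, with 11 of 13 (84.6%) positive in both replicates, against 29.6% of all genes. Mmp7, the protease that activates defensins, differed by 1.29 ± 0.38 (limma adjusted p = 0.355). Of 22 genes of secretory progenitors and the Notch pathway 0 were called (3 higher at an unadjusted p under 0.05), with a median of 0.11. Of 26 enterocyte genes 0 were called (0 at an unadjusted p under 0.05), with a median of 0.38 (0.07 in MR793 and 0.67 in MR820). Of them 17 (65.4%) were positive in both replicates, against 29.6% of all genes, and 2 were negative in both.

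Of the lists for cell types outside the epithelium, that of neurons and glia held called genes. Of 19 mesenchymal and endothelial genes 0 were called (2 higher at an unadjusted p under 0.05), with a median of -0.01; Vim, for vimentin, was 8.99 and 8.69 against 7.37 and 6.18, a difference of 2.06 ± 0.43 (limma adjusted p = 0.0793), and its other probe sets differed by 2.76 and 3.01. Of 13 neuron and glia genes 3 were called (23.1% against 0.889% of all genes), with a median of 0.09 for the list: Ret, a receptor tyrosine kinase gene, by 1.47 ± 0.18 (adjusted p = 0.00395) and the neurofilament genes Nefl, by 1.33 ± 0.20 (0.0156), and Nefm, by 1.06 ± 0.17 (0.0228). Without the MR820 array of Mex3a-low Lgr5-low cells these calls were lost (0.0521, 0.207 and 0.251), and that of Nefl also without the MR793 array of that population (0.0764). The call of Nefm was lost without any 1 of 7 arrays (0.0502 to 0.251). The mean of the 13 genes was 5.99 and 5.92 in Mex3a-high and 5.53 and 5.56 in Mex3a-low cells; the part of such cells in the result was not tested. The immediate early genes, which respond to dissociation, differed by replicate more than by population, with mean levels of 9.68 and 8.45 in Mex3a-high and 9.54 and 8.46 in Mex3a-low cells.

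The step from Mex3a-negative to Mex3a-low cells of the same gate is given beside these values. It shares the Mex3a-low arrays, so a low Mex3a-low value raises the later step and lowers the earlier one. Both Mex3a-negative arrays were run on strip 3, so in MR820 the earlier step also crosses from strip 3 to strip 2. In that comparison limma called 8 genes higher (0.0468% of those tested). Of them 6 are among the 152: Dclk1, Sh2d6, Fut2, Avil, Alox5ap and Vwa5b2; the other 2 are Gip and Itln1, the gene of a Paneth and goblet cell lectin. Dclk1 was 5.27 and 5.63 in Mex3a-negative cells, which puts the earlier step at 3.58 log2 and the later one at 2.69. Gip had an earlier step of 5.73 and a later one of 0.70. Isl1 was 5.84 and 5.58 in Mex3a-negative cells, with steps of 1.37 and 2.67, and Pax4 6.48 and 6.41, with steps of 0.38 and 1.58. Tuft markers averaged 6.06 and 6.10 in Mex3a-negative, 7.45 and 6.85 in Mex3a-low and 8.90 and 8.91 in Mex3a-high cells. The MR793 and MR820 arrays were thus level in the outer gates and apart in the middle one.

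**Figure D4:**
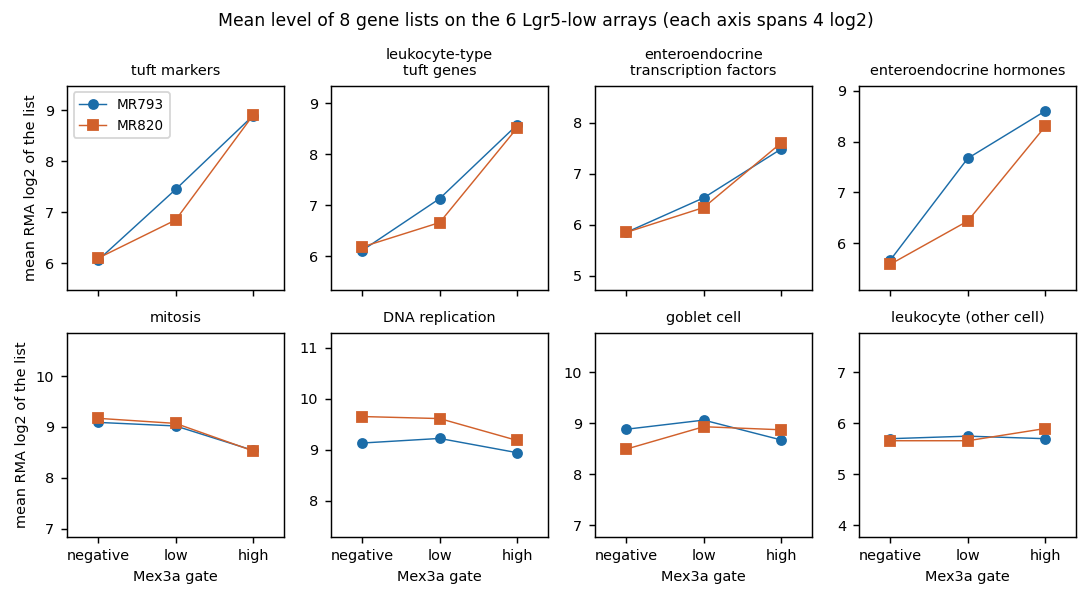
Mean RMA log2 level of 8 gene lists on the 6 Lgr5-low arrays by Mex3a gate, with circles for MR793 and squares for MR820, every axis spanning the same range. Tuft markers climb from 6.06 and 6.10 to 8.90 and 8.91, the hormones of the 2 Mex3a-low arrays stand at 7.67 and 6.44, and mitosis and replication genes are lower in the Mex3a-high gate.

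The same contrast among Lgr5-high cells uses none of these arrays. There limma called 0 genes (358 higher and 263 lower at an unadjusted p under 0.05). Of the 152 genes 141 had a positive change, against 57.8% of all genes, with a median of 0.30. Without the array that stood apart it was 133, against 44.7% of all genes, with a median of 0.21. With that array left out, the Mex3a-high array of MR820, on strip 2, is set against Mex3a-low arrays on strip 1. Population and strip then cannot be told apart in the Lgr5-high gate. Dclk1 changed by 2.48 ± 0.32 and Sh2d6 by 2.60 ± 0.38 in Lgr5-high cells, close to their 2.69 and 2.13 in Lgr5-low cells. Neurod1 changed by 0.25 ± 0.18 there against 2.15 ± 0.18, a difference tested below. Fes changed by 0.31 ± 0.28 against 2.61 ± 0.28, but its difference of 2.30 ± 0.39 was not called (limma adjusted p = 0.139). The difference between the gates sets a change within strips in Lgr5-low cells against one that crosses strips in MR820. This difference was tested in the same fit. It was called for 13 genes, or 0.076% of those tested, each with the larger rise in Lgr5-low cells and each among the 152; 0 genes were called the other way (374 and 103 at an unadjusted p under 0.05). Among the 13 were Neurod1 (difference 1.90 ± 0.26, adjusted p = 0.0477) and St18 (2.09 ± 0.29, 0.0477). For Dclk1 the difference was 0.21 ± 0.45 (adjusted p = 0.907). With the replicate as a block the count was 6, and the difference had adjusted p values of 0.105 for Neurod1 and 0.0972 for St18. The count was 46, with all 13 among them, without the array that stood apart. It was 3 without the Mex3a-high Lgr5-low array of MR793, 29 when the MR793 array of Mex3a-low Lgr5-low cells was dropped, 0 without any 1 of 7 other arrays, and 3611 when the MR820 array of Mex3a-high Lgr5-high cells was dropped, where the array that stood apart alone stands for its population.

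**Figure D5:**
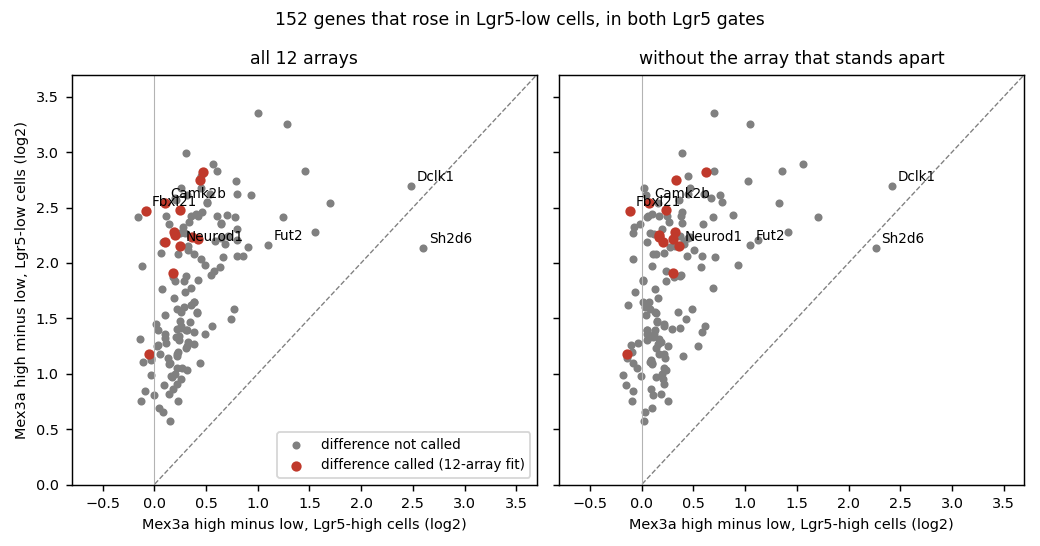
Change of the 152 genes in Lgr5-low cells (vertical axis) against their change in Lgr5-high cells (horizontal axis), both log2, with all 12 arrays on the left and without the array that stood apart on the right; red points are the 13 genes whose difference between gates was called with all arrays. Dclk1 and Sh2d6 lie near the line of equal change; the genes were chosen for their rise in Lgr5-low cells, which in itself puts points above that line.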

How the data were processed

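RNA of 12 mouse small intestine samples was measured on Affymetrix expression arrays. The authors deposited 1 log2 value for each probe set and array. The submitters' processing notes name RMA, without settings, and raw intensities were not used. RMA gives dim probe sets a value too and so compresses their differences. Of 45141 probe sets 28898 name 1 gene in the probe table; the one with the highest mean over 12 arrays stood for its gene.

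Limma 3.58.1 (R 4.3.3) fitted the 6 populations on all arrays, with no block and with eBayes' mean-variance trend, and was tested on simulated data. SE is moderated, and SD covers n = 2 arrays, a number that limits the precision. The design text draws the 6 populations from the same 2 biological replicates, which pairs them. Replicate deviations of the compared populations correlated at 0.566, the highest of 15 population pairs. Of these pairs 14 lay over 0.1, and the lowest was -0.115. In the compared populations replicate and strip coincide, so a deviation shared by replicate and one shared by strip cannot be told apart. The populations compared and the 29 gene lists were chosen with earlier results of these data known. Genes to name were drawn from Mex3a, Lgr5, the 15 largest called changes, from each list the 8 largest called members or the 3 with the smallest p, all members behind counts of 5 or fewer, and 6 genes of the gate difference; not all of these are printed, and other genes were named after their values were seen. Alternatives were blocks for replicate or strip, other scalings, samples, filters and probe set rules, and each array left out.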

Additional observations from a re-analysis of the deposited data

Results flagged for a closer look

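For 13 genes the change from Mex3a-low to Mex3a-high cells differed between the Lgr5 gates in limma's test of the difference itself (adjusted p 0.0248 to 0.0477, 0.076% of genes). Each rose in both replicates of the Lgr5-low gate. The F-box gene Fbxl21 rose by 2.47 log2 in Lgr5-low cells and changed by -0.08 in Lgr5-high cells, a difference of 2.55. Camk2b, for a calcium/calmodulin-dependent kinase subunit, differed by 2.43 (2.54 against 0.10) and Nebl by 2.35 (2.82 against 0.47). Tmem229a differed by 2.31 and Serpina1c, an alpha-1-antitrypsin gene with close paralogs that its probes may also detect, by 2.23. Differences were 2.09 for St18, 2.08 for Strip2, 2.05 for the tuft cell kinase gene Bmx and 1.90 for Neurod1. They were 1.87 for the diacylglycerol kinase gene Dgki, 1.80 for the phosphatase inhibitor gene Ppp1r14c, 1.73 for Lrp11 and 1.23 for Igfbp3, a binding protein of insulin-like growth factors. With the replicate as a block, 6 were called: Fbxl21, Camk2b, Tmem229a, Serpina1c, Strip2 and Lrp11. In MR820 the Lgr5-high change also crosses from strip 1 to strip 2, while the Lgr5-low changes stay within a strip. The array that stood apart is 1 of the 4 arrays behind the Lgr5-high change. Without it, the Lgr5-high change was -0.11 for Fbxl21, 0.07 for Camk2b and 0.63 for Nebl. That change then sets 1 Mex3a-high array, run on strip 2, against Mex3a-low arrays that were both run on strip 1. Population and strip cannot be told apart in it.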

How the results depend on the processing

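With the replicate as a block, 168 genes rose, 145 of them among the 152. Apart from the fits with 1 array left out, the other alternatives within 1.5 times of 152 gave 131 to 206. The count was 42 among the brighter genes, where fewer genes were tested, and 738, with 157 lower, with the block and without the array that stood apart, an alternative chosen after seeing the data. Lower calls numbered 4 with the Lgr5-low arrays alone and 1 with the 4 compared arrays alone. Leaving out 1 array gave 49 to 405 higher and 0 to 15 lower calls.

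The 13 gate differences became 6 with the block, 8 with the strip as a block, 0 among brighter genes, 0 without the trend, and 116, with 1 lower, with the block and without the array that stood apart. Leaving out 1 array gave 0 to 3611 higher and 0 to 4576 lower. The cause was not tested.

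No gene named in the text turned its direction in any of these alternatives. Of 79 named genes that rose, 48 lost the call in at least 1 alternative. The block ended 7 of the 152 calls, among them Kctd12 of the genes named here, and moved the list counts for exocytosis from 5 to 6, for tuft signalling from 6 to 7 and for tuft markers from 25 to 24, for hormones from 1 to 2 and for Paneth cells from 1 to 3. The values carry no background measure, so which dim genes lay above background was not tested.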

Other observations

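The genes that follow, apart from Irf7, are on none of the lists. They were picked after their values were seen, so they stand as single genes, and no gene group was counted or tested. Usp18, which removes the ubiquitin-like modifier ISG15, was 6.80 and 6.23 in Mex3a-high Lgr5-low cells and 4.80 and 4.70 in Mex3a-low cells (MR793, MR820), a rise of 1.76 ± 0.19 (limma adjusted p = 0.00305) that held with each array left out. Dhx58, for an RNA sensor of the RIG-I family, rose by 1.10 ± 0.17 (adjusted p = 0.0144; 0.09 and 0.72 on its other probe sets) and Ifi27 by 1.18 ± 0.20 (adjusted p = 0.0326). The populations did not overlap in any of these genes. Dhx58 lost its call without any 1 of the 4 arrays compared (0.0622 to 0.207) and Ifi27 without any 1 of 10 arrays (0.0626 to 0.269). Irf7, an interferon regulatory factor gene on the list of leukocyte-type tuft genes, differed by 1.14 ± 0.31 (adjusted p = 0.275).

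Hk1, a hexokinase gene, was 9.20 and 8.64 against 7.16 and 5.94 and rose by 2.37 ± 0.35 (limma adjusted p = 0.0135; 1.10 on its other probe set). Pfkfb3, an activator of glycolysis, was 9.01 and 9.08 against 7.67 and 7.21 and rose by 1.60 ± 0.23 (adjusted p = 0.0114; 0.89 on its other probe set). Hk1 lost its call without the Mex3a-high Lgr5-low array of MR793 (0.151) or the Mex3a-low Lgr5-low array of MR820 (0.0524). Pfkfb3 lost it without either of these (0.109 and 0.171) and without the Mex3a-high Lgr5-low array of MR820 (0.0978). Scgn, for the calcium sensor secretagogin, rose by 2.35 ± 0.28 (adjusted p = 0.00389), Rimbp2, a presynaptic scaffold gene, by 2.21 ± 0.25 (adjusted p = 0.00305), and Gfra3, a receptor of the GDNF family, by 2.05 ± 0.19 (adjusted p = 0.00138). Rimbp2 and Gfra3 held their calls with each array left out; Scgn lost its call without the Mex3a-high Lgr5-low array of MR793 (0.0573).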
